A study of Mus musculus with 12 samples.

Results

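Matrix metalloproteinases (MMPs) and their tissue inhibitors (TIMPs) were followed as 10 genes, chosen by symbol: Mmp2, Mmp3, Mmp9, Mmp11, Mmp13, Mmp14, Mmp19, Timp1, Timp2 and Timp3, out of 25230 genes in the count tables. They were chosen with earlier results of these data known, so the shares of all genes given beside them are a description. RNA-seq was performed on mouse mesangial cells (MMC), the contractile cells that hold the capillary loops of the kidney glomerulus, grown as primary cultures from pooled glomeruli. Wild-type (WT) MMC were compared with MMC from the lncMGC-KO5 mouse line, in which a Cas9 deletion made in C57BL/6J embryos removes sequence at the start of lncMGC, the long non-coding RNA that hosts the miR-379 cluster. Cells of each genotype were serum-depleted (SD), the control condition, or received TGF-β (10 ng/ml, 24 h), and 3 libraries were made of each of WT-SD, KO-SD, WT-TGF and KO-TGF. All cultures had been kept in the same medium with fetal bovine serum. The KO groups stand for 1 mutant line, and the age and sex of the mice and the number of mice behind a library are not given in the sources used here. The study calls its RNA-seq samples independent, but neither it nor the labels say whether the libraries of a group came from separate cultures or mice, so the p-values measure the spread between these libraries, which may be technical.

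MMPs are zinc-dependent enzymes that cut the proteins of the extracellular matrix, and most are secreted as inactive proenzymes that are activated outside the cell. TIMPs bind the active site of MMPs and block it, so turnover of the mesangial matrix depends on both sets of proteins. TGF-β is the growth factor best known for driving matrix accumulation in the glomerulus in diabetic kidney disease, and genes of both sets are among its known targets.

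The promoters of Mmp3, Mmp13, Timp1 and Timp3 are shown because these genes gave the largest falls and rises with TGF-β among the members for which a sequence was found. Each is the run of 250 bases before the annotated start (RefSeq, GRCm38.p6, which is the mm10 assembly of the counts), on the strand of the gene and read 5′ to 3′. Capitals mark the motifs searched for on both strands, TGANTCA for an AP-1 site, TATAAA for the TATA box, GGGCGG for the GC box and GTCTAGAC for a palindromic SMAD-binding element. The windows lie at chr9:7445572-7445821 (plus strand) for Mmp3, chr9:7272264-7272513 (plus strand) for Mmp13, chrX:20869916-20870165 (plus strand) for Timp1 and chr10:86300162-86300411 (plus strand) for Timp3.
Mmp3: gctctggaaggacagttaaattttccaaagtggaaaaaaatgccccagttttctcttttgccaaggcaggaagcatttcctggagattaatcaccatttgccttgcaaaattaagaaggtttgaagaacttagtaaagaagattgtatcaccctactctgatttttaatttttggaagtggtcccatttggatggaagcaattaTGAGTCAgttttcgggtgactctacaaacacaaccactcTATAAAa
Mmp13: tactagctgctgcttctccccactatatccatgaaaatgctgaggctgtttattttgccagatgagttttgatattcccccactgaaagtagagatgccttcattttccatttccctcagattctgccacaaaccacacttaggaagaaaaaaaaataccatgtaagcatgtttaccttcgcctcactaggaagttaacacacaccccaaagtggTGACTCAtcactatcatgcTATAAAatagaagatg
Timp1: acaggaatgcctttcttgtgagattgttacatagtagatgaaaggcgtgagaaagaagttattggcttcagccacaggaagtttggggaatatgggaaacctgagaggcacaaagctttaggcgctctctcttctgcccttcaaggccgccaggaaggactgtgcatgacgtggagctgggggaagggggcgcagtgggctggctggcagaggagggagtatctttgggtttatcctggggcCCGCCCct
Timp3: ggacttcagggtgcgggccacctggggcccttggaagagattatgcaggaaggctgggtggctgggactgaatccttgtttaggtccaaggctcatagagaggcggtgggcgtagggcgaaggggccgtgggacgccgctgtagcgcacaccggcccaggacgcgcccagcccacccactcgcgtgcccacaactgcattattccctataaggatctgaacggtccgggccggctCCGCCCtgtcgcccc

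Mmp3 and Mmp13, which both fell with TGF-β as given below, each held an AP-1 site and a TATA box in this window. The AP-1 letters of Mmp3 lay 46 to 40 bases before the start and its TATA box 7 to 2 bases before it. The AP-1 letters of Mmp13 lay 35 to 29 bases before the start and its TATA box 16 to 11 bases before it. Timp1 and Timp3 each held 1 GC box, at 8 to 3 and 15 to 10 bases before the start, and neither of the other motifs found in Mmp3 and Mmp13. Of the 10 members, 7 had a promoter in the table, and Mmp11, Mmp14 and Timp2 also held only GC boxes. Mmp11 and Timp2 also fell with TGF-β in both genotypes, whereas Mmp14 rose. Mmp2, Mmp9 and Mmp19 had no promoter sequence and were not searched. Among 32851 mouse promoters of the same length, 6.75% held the AP-1 letters, 12.4% the TATA box, 32.7% the GC box and 0.167% the SMAD-binding element. None of the 7 searched members held the SMAD-binding element, and no shorter form of it was searched for. A match of letters describes the sequence and is not a measured binding site.

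Depth was similar across the libraries, with 19898050 to 22827706 counts on genes, and 3 counts, taken as the floor of detection, equal 0.130 to 0.160 CPM. CPM are counts relative to library size, with sizes scaled by TMM. No row for lncMGC was found in the count tables. Mirg, a non-coding RNA of the same locus, had 2.33 ± 0.309 CPM in WT-SD and 3.59 ± 0.153 in WT-TGF (mean ± SD, n = 3). It had 3.67 ± 0.548 CPM in KO-SD and 4.27 ± 0.549 in KO-TGF. The study reports less Mirg in lncMGC-KO5 than in WT MMC by RT-qPCR, whereas these means were higher in KO in both conditions. With TGF-β the libraries of the genotypes overlapped. The study also reports lower Dlk1, Meg3 and Rian in lncMGC-KO5 MMC, and their counts are not given here. Mirg alone cannot settle whether the labels are right, so KO below stands for the libraries labelled KO. Of the mesangial markers, Pdgfrb and Acta2 were well above the floor in all groups. The summed list of 10 genes ranged from 2923 to 3067 CPM in WT-SD, 6025 to 6169 in WT-TGF, 5195 to 5386 in KO-SD and 11119 to 11196 in KO-TGF. Most of this sum was Acta2 and Tagln, with means of 1570 and 716 CPM in WT-SD and 6279 and 3909 CPM in KO-TGF. The sum thus mainly follows these genes. The mesangial genes Itga8 and Des were low, with 2.90 and 7.68 CPM in WT-SD and 0.637 and 0.247 CPM in KO-TGF. Serpine2 of the same list was also lower in KO-TGF, at 44.3 CPM against 278 in WT-SD. The podocyte gene Nphs1 and the endothelial gene Cdh5 were at or under the floor in every library. In bulk RNA, fewer cells of a type and less RNA per cell cannot be told apart.

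In serum-depleted WT MMC the transcripts of this family were mostly Timp2, Mmp2 and Timp1. Levels of different genes were compared per length, as reads per annotated exon length and library size (RPKM), which ignores which isoform is used. In WT-SD the RPKM fell in the order Timp2 (480), Mmp2 (447), Timp1 (253), Mmp14 (110), Timp3 (70.3), Mmp11 (30.1), Mmp19 (9.93), Mmp13 (6.74), Mmp3 (5.61) and Mmp9 (0.289), and no neighbors in this order overlapped between libraries. In KO-SD Timp2 (568) and Mmp2 (300) were again highest, followed by Mmp14 (225) and Timp1 (220), whose libraries overlapped, and Timp3 (102). With TGF-β, Timp1 led in both genotypes, with 1195 RPKM in WT-TGF and 1265 in KO-TGF. It was followed in WT-TGF by Mmp2 (668), then Timp2 (411) and Timp3 (398), whose libraries overlapped. In KO-TGF it was followed by Timp3 (654), Timp2 (431), Mmp14 (354) and Mmp2 (343). Mmp9, Mmp3 and Mmp13 stayed at the low end of the order in every group.

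**Figure D1:**
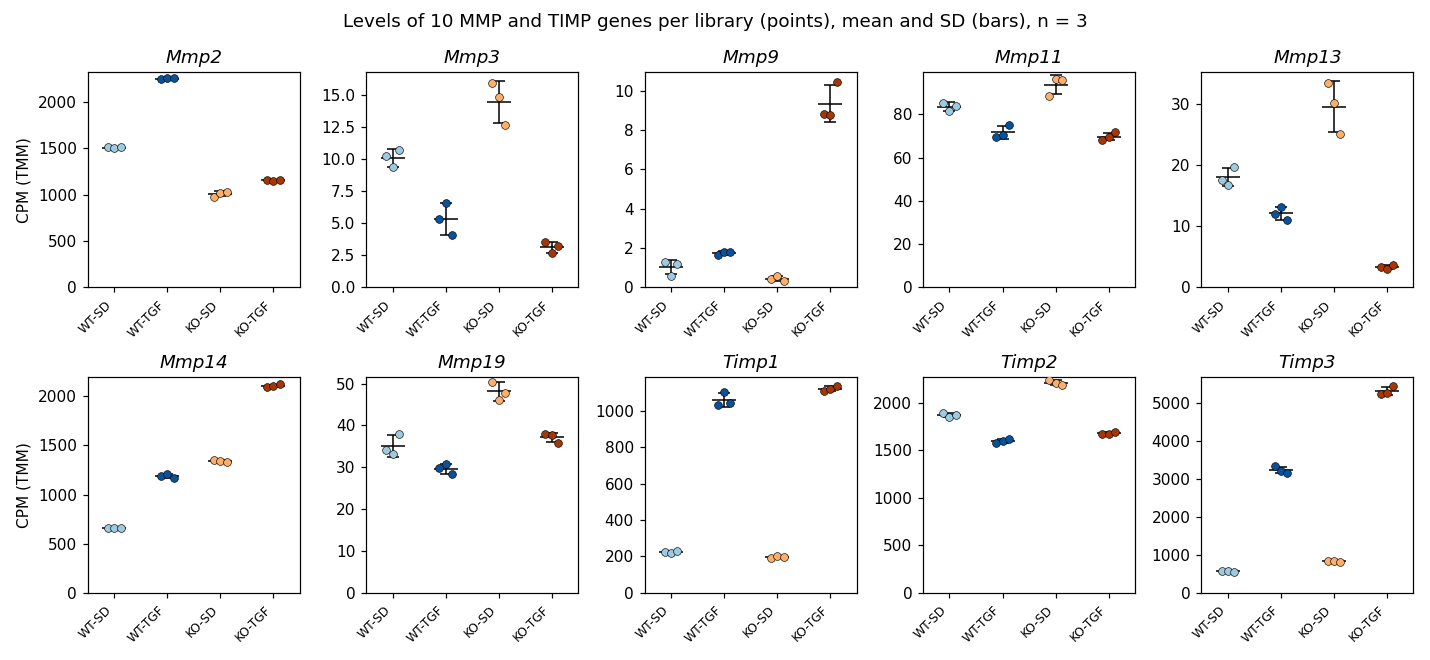
TMM-scaled CPM of the 10 members in each of the 12 libraries, 1 panel per gene with its own axis, points for libraries and bars for the mean and SD of each group. Mmp9 stands out only in KO-TGF, at 8.76 to 10.4 CPM, and Mmp13 reaches its lowest level there, at 2.99 to 3.73 CPM.

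The share of inhibitor transcripts was higher with TGF-β. The summed RPKM of the 3 TIMPs was 803 in WT-SD, 2003 in WT-TGF, 890 in KO-SD and 2350 in KO-TGF. The summed RPKM of the 7 MMPs was 610 in WT-SD, 910 in WT-TGF, 592 in KO-SD and 738 in KO-TGF. The ratio of the sums was 1.31 to 1.32 over the libraries of WT-SD, 2.18 to 2.24 in WT-TGF, 1.48 to 1.53 in KO-SD and 3.16 to 3.21 in KO-TGF, so no groups overlapped. These sums are a description of transcripts in the 4 groups, carry no test, and say nothing of protein or enzyme activity. Mmp2 made up 31.7% of the summed RPKM of the family in WT-SD and 11.1% in KO-TGF, whereas Timp1 made up 17.9% in WT-SD and 41.0% in both TGF-β groups.

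**Figure D2:**
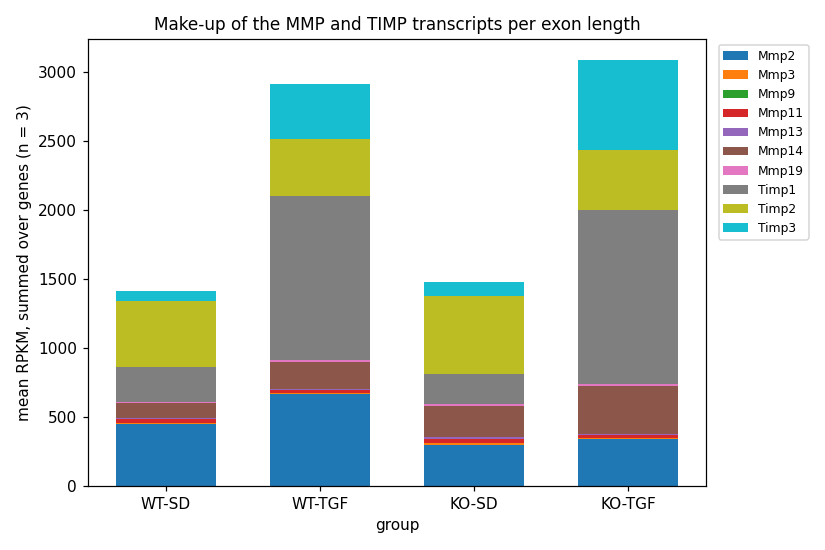
Mean RPKM of the 10 members over 3 libraries, stacked in 1 bar per group, without error bars. Timp1 (grey) takes 41.0% of the bar in both TGF-β groups, and Mmp2 (bottom) takes 31.7% in WT-SD and 11.1% in KO-TGF.

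The first comparison asked which members respond to TGF-β in each genotype. In WT MMC, TGF-β raised Timp1, Timp3, Mmp14, Mmp2 and Mmp9 and lowered Mmp3, Mmp13, Mmp19, Timp2 and Mmp11. All 10 passed FDR <5% (quasi-likelihood test of edgeR, adjusted by Benjamini-Hochberg over 11404 genes), as did 72.5% of all genes tested (35.9% higher and 36.6% lower). Only Timp1 and Timp3, both higher, passed with fold change >2, as did 9.87% of all genes (4.19% higher and 5.68% lower). For all 10 the treated and untreated libraries did not overlap, which held for 75.2% of all genes. In KO MMC each member moved in the direction it had in WT, with Mmp2 turning without TMM scaling, all 10 again at FDR <5% against a background of 74.0% (35.0% higher and 39.1% lower), and none overlapped, against 74.4% of all genes without overlap. With fold change >2 there were 5, namely Timp1, Timp3 and Mmp9 higher and Mmp3 and Mmp13 lower, against 13.4% of all genes (4.40% higher and 9.04% lower). The median size of the log2 fold change was 0.68 over the members and 0.28 over all genes in WT, and 1.43 and 0.31 in KO. Without Mmp9, it was 0.58 in WT and 0.65 in KO over the other 9 members. Because the members were chosen with earlier results known, these medians describe the list and do not test the family. Mmp9 entered the tests only through KO-TGF, where it exceeded 1 RPKM, so it had to differ there, and the other 9 members exceeded that level in all groups.

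**Figure D3:**
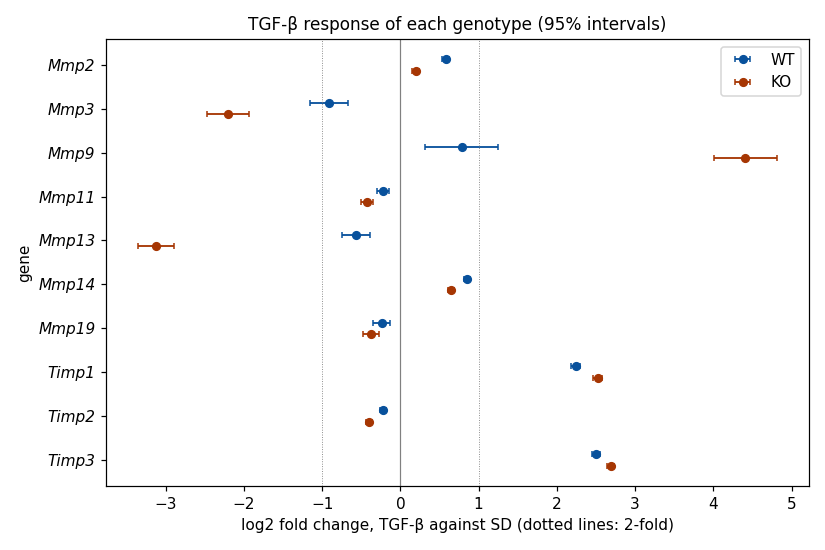
Log2 fold change with TGF-β (TGF-β against SD) of the 10 members in WT and in KO MMC, with bars of 95% intervals, from the quasi-likelihood fit of edgeR. Each member lies on the same side of 0 in both genotypes (Mmp2 in KO not so without TMM scaling), and Mmp9, Mmp13 and Mmp3 are the farthest apart between genotypes.

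Among the inhibitors, Timp1 and Timp3 gave the strongest rises. Timp1, a secreted inhibitor that blocks most MMPs but only weakly the membrane-bound ones, lies at chrX:20870166-20874737 within Syn1, which is on the opposite strand, and counting was strand-specific. Its CPM were 222, 221 and 230 in WT-SD, 1034, 1105 and 1044 in WT-TGF, 189, 203 and 195 in KO-SD and 1108, 1123 and 1138 in KO-TGF. The treated libraries stood far above the untreated ones in each genotype, with a 4.73-fold rise in WT (log2 fold change 2.24 ± 0.03, SE) and a 5.75-fold rise in KO (2.52 ± 0.03).

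Timp3, an inhibitor that is bound to the matrix and also blocks ADAM proteases, lies at chr10:86300412-86349505 within Syn3, which is on the opposite strand. Its CPM were 580, 579 and 558 in WT-SD and 3338, 3217 and 3162 in WT-TGF, a 5.66-fold rise. In KO they were 849, 824 and 808 in KO-SD and 5250, 5282 and 5444 in KO-TGF, a 6.44-fold rise. Timp3 was higher in KO than in WT in both conditions, with no overlap between libraries, by 1.45-fold in SD and 1.64-fold with TGF-β.

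Timp2, which inhibits MMP2 and also takes part in its activation at the cell surface, moved the other way from Timp1 and Timp3. It lies on the minus strand at chr11:118301061-118355411 and overlaps Cep295nl on the same strand, where reads that fit both genes are not counted. CPM were 1894, 1846 and 1869 in WT-SD against 1580, 1597 and 1624 in WT-TGF, a log2 fold change of -0.22 ± 0.02. In KO they were 2238, 2210 and 2189 in KO-SD against 1668, 1676 and 1698 in KO-TGF, a log2 fold change of -0.40 ± 0.02. The falls were 1.17-fold and 1.32-fold, small but outside the range of the libraries in both genotypes.

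Of the gelatinases, which cut denatured collagen and the type IV collagen of basement membranes, Mmp2 was abundant and Mmp9 scarce. Mmp2 (gelatinase A, chr8:92827290-92853421) had 1510, 1502 and 1513 CPM in WT-SD and 2244, 2257 and 2257 in WT-TGF, a 1.49-fold rise. In KO it had 979, 1024 and 1030 CPM in KO-SD and 1154, 1151 and 1163 in KO-TGF, a 1.14-fold rise (log2 fold change 0.19 ± 0.02) that became -0.0089 (FDR 0.710) with library sizes left without TMM scaling. Both KO groups lay below both WT groups in every library.

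Mmp9 (gelatinase B, chr2:164940326-164955850) was scarce in every group but KO-TGF. Its counts were 28, 14 and 26 in WT-SD, 35, 40 and 37 in WT-TGF, 9, 12 and 7 in KO-SD and 165, 164 and 199 in KO-TGF, corresponding to 1.02 ± 0.362, 1.75 ± 0.0899, 0.438 ± 0.131 and 9.34 ± 0.953 CPM. The rise in KO was 21.2-fold (log2 fold change 4.40 ± 0.21). The rise in WT was 1.72-fold (0.78 ± 0.24, FDR 0.00446) and rested in part on WT-SD replicate 2, without which it was 0.51 with an FDR of 0.0575.

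Mmp14, the membrane-anchored MMP that activates pro-MMP2 together with TIMP2, rose in both genotypes. It lies at chr14:54431598-54442456. Its CPM were 660, 658 and 655 in WT-SD, 1186, 1208 and 1172 in WT-TGF, 1349, 1344 and 1332 in KO-SD and 2098, 2102 and 2123 in KO-TGF. The fold rise was 1.81 in WT and 1.57 in KO, while the level rose by 531 CPM in WT-TGF and by 766 CPM in KO-TGF. Untreated KO MMC already had more Mmp14 transcript than TGF-β-treated WT MMC in every library.

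The collagenase and the stromelysin of the chromosome 9 cluster fell with TGF-β, more in KO. Mmp13, which cleaves fibrillar collagens and is the main collagenase of rodents (chr9:7272514-7283333), had 17.6, 16.8 and 19.7 CPM in WT-SD and 12.05, 13.2 and 11.1 in WT-TGF. In KO it had 33.4, 30.2 and 25.1 CPM in KO-SD and 3.42, 2.99 and 3.73 in KO-TGF, where the counts were 64, 56 and 71. The fall was 1.48-fold in WT (log2 fold change -0.57 ± 0.09) and 8.72-fold in KO (-3.12 ± 0.12), with no overlap of libraries in either genotype.

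Mmp3, or stromelysin, an enzyme of broad specificity that also activates other MMPs (chr9:7445822-7455975), followed the same order of groups. Its CPM were 10.2, 9.34 and 10.7 in WT-SD, 5.34, 6.59 and 4.05 in WT-TGF, 15.9, 14.8 and 12.7 in KO-SD and 3.53, 2.67 and 3.20 in KO-TGF. The fall was 1.88-fold in WT (log2 fold change -0.91 ± 0.12) and 4.61-fold in KO (-2.20 ± 0.14). For both genes KO-SD was the highest and KO-TGF the lowest group, with every library apart from those of the other groups.

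Mmp11 and Mmp19 gave small falls in both genotypes. Mmp11, a stromelysin-like enzyme that furin activates inside the cell, lies on the minus strand at chr10:75923221-75932502 and overlaps Chchd10 on the opposite strand. Its CPM were 85.5, 81.4 and 83.8 in WT-SD and 69.7, 70.6 and 75.3 in WT-TGF, a log2 fold change of -0.22 ± 0.04, and 88.6, 96.5 and 96.1 in KO-SD and 68.1, 69.6 and 71.7 in KO-TGF, a log2 fold change of -0.43 ± 0.04. Mmp19, which cuts basement membrane proteins, lies at chr10:128790910-128800827 and overlaps Tmem198b on the opposite strand. Its CPM were 34.1, 33.2 and 37.9 in WT-SD and 29.9, 30.8 and 28.4 in WT-TGF (log2 fold change -0.24 ± 0.05), and 50.4, 46.1 and 47.8 in KO-SD and 37.9, 37.7 and 35.8 in KO-TGF (-0.37 ± 0.05). All 4 falls were below 1.5-fold and outside the range of the libraries.

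The size of the TGF-β response was then compared between genotypes with the interaction term, the response in KO minus that in WT. Of the members, 9 of 10 differed at FDR <5% (3 higher and 6 lower), against 25.4% of all genes (8.78% higher and 16.6% lower). With fold change >2 there were 3, of which 1 was higher and 2 lower, against 2.73% (0.324% higher and 2.40% lower). The rise of Mmp9 was larger in KO by 3.62 ± 0.37 on the log2 scale (FDR 3.93e-09), and the falls of Mmp13 and Mmp3 were deeper in KO, by -2.56 ± 0.16 (FDR 9.06e-14) and -1.29 ± 0.19 (FDR 4.82e-06). Of these 3, Mmp9 carries the condition that it was tested only because of KO-TGF.

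The other 6 differences were small. The rises of Mmp2 (-0.39 ± 0.03, FDR 1.15e-11) and Mmp14 (-0.20 ± 0.03, FDR 1.66e-06) were smaller in KO on the log2 scale, and those of Timp1 (0.28 ± 0.04, FDR 1.47e-06) and Timp3 (0.19 ± 0.03, FDR 6.02e-05) were larger. The falls of Timp2 (-0.17 ± 0.03, FDR 1.87e-05) and Mmp11 (-0.21 ± 0.06, FDR 0.00672) were deeper in KO. The Mmp11 difference missed the threshold without KO-TGF replicate 1 (-0.15, FDR 0.0763) or without KO-TGF replicate 2 (-0.17, FDR 0.0543). For Mmp19 the difference was -0.14 with a 95% interval of -0.28 to 0.01 (FDR 0.193). All FDRs are from the same edgeR fit.

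The genotypes were next compared within each condition. In SD, 7 members were higher in KO (Mmp14, Mmp13, Timp3, Mmp3, Mmp19, Timp2 and Mmp11) and 3 lower (Mmp9, Mmp2 and Timp1), all 10 at FDR <5% against 55.9% of all genes (30.6% higher and 25.2% lower). None overlapped between genotypes, against 59.2% of all genes without overlap. With fold change >2 there were 2, Mmp14 (2.04-fold higher) and Mmp9 (2.32-fold lower, from 14 to 28 counts in WT-SD and 7 to 12 in KO-SD), against 6.37% (3.25% higher and 3.12% lower). Mmp13 was 1.64-fold, Timp3 1.45-fold, Mmp3 1.43-fold and Mmp19 1.37-fold higher in KO-SD, and Mmp2 was 1.49-fold lower. Timp1 (log2 fold change -0.20), Timp2 (0.24) and Mmp11 (0.17) differed by less.

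With TGF-β, 6 members were higher in KO and 3 lower at FDR <5%, against 55.2% of all genes (27.3% higher and 27.9% lower), and this split depended on the scaling, with 4 higher and 5 lower by library sizes without TMM. The libraries of 9 members did not overlap, against 61.7% of all genes. Mmp9 was 5.31-fold higher in KO-TGF and Mmp13 3.59-fold lower, the only members with fold change >2, against 5.94% of all genes (1.39% higher and 4.55% lower). Since Mmp9 was tested only because it exceeded 1 RPKM in KO-TGF, its higher level there was built into the choice of genes. Mmp14 (1.77-fold), Timp3 (1.64-fold) and Mmp19 (1.25-fold) were also higher, and Mmp2 (1.95-fold) and Mmp3 (1.71-fold) lower. The differences of Timp1 (log2 fold change 0.08, FDR 0.00915) and Timp2 (0.07, FDR 0.00342) were under 1.1-fold and turned to -0.039 (FDR 0.211) and -0.050 (FDR 0.0277) without TMM scaling. That of Timp1 also missed the threshold without WT-TGF replicate 1 (FDR 0.0877) or replicate 3 (FDR 0.0522). Mmp11 did not pass (log2 fold change -0.04, 95% interval -0.12 to 0.04, FDR 0.422, edgeR), and its libraries overlapped.

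**Figure D4:**
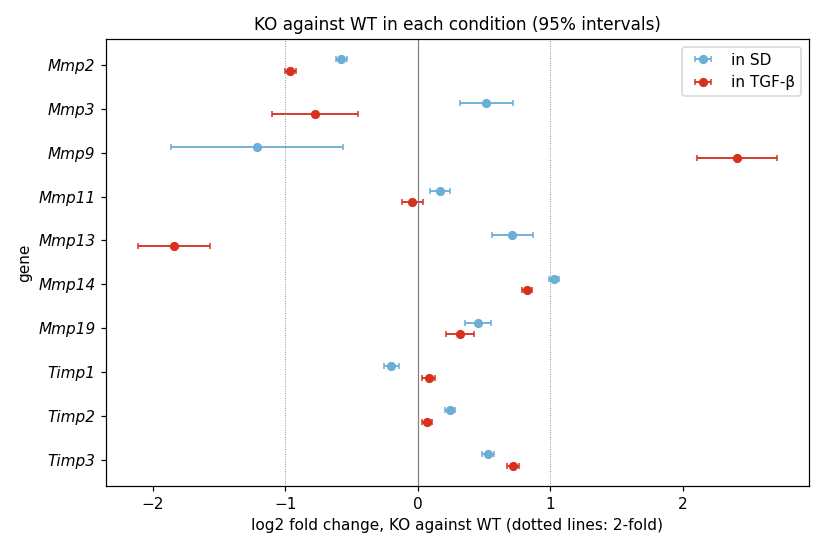
Log2 fold change of KO against WT for the 10 members in SD and with TGF-β, with bars of 95% intervals, from the quasi-likelihood fit of edgeR. Mmp3 and Mmp13 are higher in KO-SD and lower in KO-TGF than the matching WT group, Mmp9 is the reverse, and Timp1 and Timp2 lie near 0 with TGF-β.

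The direction of the genotype difference changed with treatment for Mmp3, Mmp13 and Mmp9. Mmp3 and Mmp13 were higher in KO than in WT in SD and lower with TGF-β, each past FDR <5% in both conditions. Mmp9 was lower in KO in SD and higher with TGF-β, also past FDR <5% in both. It was tested only because it exceeded 1 RPKM in KO-TGF, so its higher level there was built into the choice of genes. Its difference in SD rests on 7 to 12 counts in KO-SD and 14 to 28 in WT-SD. Mmp14, Mmp19 and Timp3 were higher and Mmp2 lower in KO in both conditions. These comparisons share groups with those of the TGF-β response, so they are not separate evidence.

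Mmp13 and Mmp3 lie in a cluster of 10 MMP genes that spans 427.1 kb at chr9:7272514-7699585 (GRCm38.p6), in the order Mmp13, Mmp12, Mmp1b, Mmp3, Mmp1a, Mmp10, Mmp8, Mmp27, Mmp20 and Mmp7. The other genes of the cluster were looked at for their position, after values had been seen. Mmp1a, Mmp1b and Mmp20 had no count in any library. Mmp12, the macrophage elastase, had 4.48 ± 0.889 CPM in WT-SD, 3.88 ± 0.464 in WT-TGF, 1.74 ± 0.334 in KO-SD and 0.691 ± 0.113 in KO-TGF. Unlike Mmp13 and Mmp3, Mmp12 was thus lower in untreated KO than in untreated WT MMC (log2 fold change -1.33 ± 0.16, FDR 3.76e-15, edgeR without the RPKM limit). Mmp8, Mmp10 and Mmp27 had at most 21 counts in a library, and none had more than 3 in KO-TGF. Mmp7 had at most 2.

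**Figure D5:**
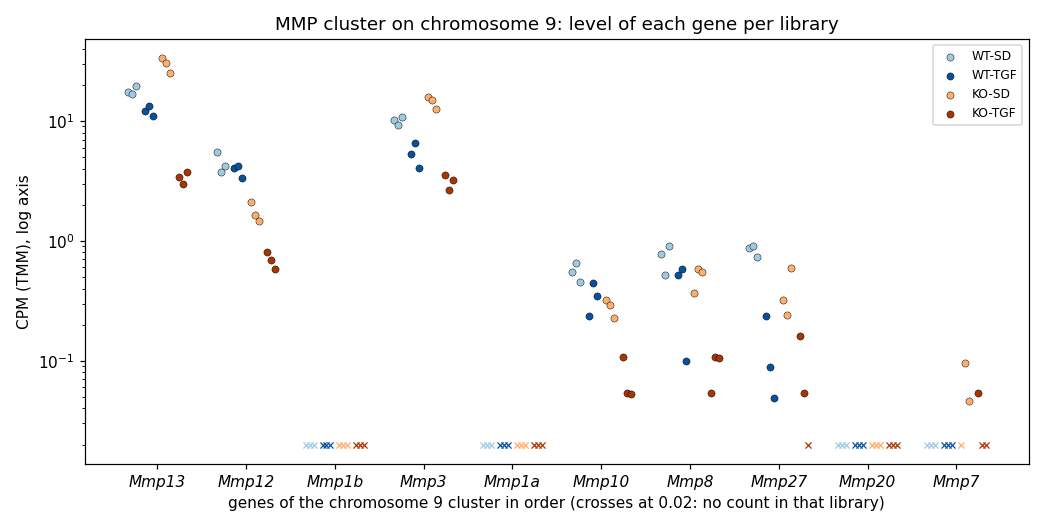
CPM of the chromosome 9 MMP genes on a log axis, 1 point per library colored by group, genes in chromosome order, with crosses for libraries without a count. Mmp13 and Mmp3 are highest in KO-SD and lowest in KO-TGF, Mmp12 has its highest mean in WT-SD at 4.48 CPM, and Mmp1b, Mmp1a and Mmp20 have no counts.

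Macrophages are a known source of Mmp9, Mmp12 and Mmp13, and markers of that cell type moved between the groups. The summed level of 15 macrophage genes was 37.8 to 41.2 CPM in WT-SD, 21.0 to 25.0 in WT-TGF, 8.22 to 9.77 in KO-SD and 2.35 to 2.83 in KO-TGF. In KO-SD 8 of the 15 genes were at 0 in all 3 libraries, among them Adgre1, C1qa, C1qb, C1qc and Tyrobp, and these 5 were also at 0 in KO-TGF. Mmp9 was highest in KO-TGF, where this sum was lowest, and Mmp13 was highest in KO-SD. The order of the Mmp12 means over the groups was that of the macrophage sum. The Mmp12 libraries of WT-SD (3.7 to 5.5 CPM) and WT-TGF (3.4 to 4.2 CPM) overlapped, however. That step did not pass (log2 fold change -0.16, FDR 0.339, edgeR without the RPKM limit). Most of the sum in KO-SD was Cd14, at 6.75 CPM. The part of macrophages in the levels of Mmp9, Mmp12 and Mmp13 was not tested.

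By the similarity of log2 CPM over the 12 libraries, the genes most like Mmp9 were Npc2 (Pearson's r 0.985), Epg5 (0.975) and Capzb (0.974). Those most like Mmp13 were Dram1 (0.993), Gtse1 (0.984) and Rab3d (0.976), and those most like Mmp3 were Setbp1 (0.985), Calcrl (0.983) and Fam168a (0.981). These correlations describe the pattern over 4 groups, are the highest of 11404 genes, and carry no test.

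Of 17 other MMP and TIMP genes, 4 had no count and 5 were expressed highly enough to be tested. With TGF-β, 3 of the 5 fell in WT and 2 in KO, and none rose at FDR <5%. Of all genes, 36.6% fell in WT and 39.1% in KO, and 72.5% and 74.0% were called in either direction. Mmp16, a membrane-type MMP, fell from 36.4 CPM in WT-SD to 17.7 CPM in WT-TGF (log2 fold change -1.03) and from 38.0 CPM in KO-SD to 15.9 CPM in KO-TGF (-1.26), with SDs below 2 CPM. Mmp23 fell in WT and KO (-0.55 and -0.98) and was lower in KO in both conditions (-1.06 in SD and -1.48 with TGF-β), while Mmp28 (0.69 and 0.81) and Mmp17 (0.56 and 0.74) were higher in KO in both. The interaction was past the threshold for Mmp23 (-0.42 ± 0.09, FDR 0.000828), and that of Mmp16 (-0.23, FDR 0.0562) passed it in some alternatives.

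A second list held 26 genes that activate, bind or clear MMPs, of which 17 were tested and 4 had no count. In WT, 9 rose and 8 fell with TGF-β, 17 of 17 against 72.5% of all genes called, and in KO 8 rose and 7 fell, against 74.0%. Plaur, the urokinase receptor that brings plasmin formation to the cell surface, rose by a log2 fold change of 2.098 in WT and 2.12 in KO. Lrp2, an endocytic receptor that is also a tubular marker, fell (-1.87 and -1.72). In KO against WT, 6 of the 17 were higher and 6 lower in SD, against 55.9% of all genes called, and 4 higher and 8 lower with TGF-β, against 55.2%.

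Pcsk5 and Pcsk6, proprotein convertases that cut the propeptides of secreted precursors, had the most negative log2 fold changes of this list in KO against WT. Pcsk5 had 44.5 ± 1.62 CPM in WT-SD and 154 ± 6.74 in WT-TGF against 6.03 ± 0.417 in KO-SD and 30.5 ± 1.88 in KO-TGF, with log2 fold changes of KO against WT of -2.88 and -2.34. Pcsk6 was also lower in KO (-2.06 and -2.12). Lcn2, a lipocalin that binds MMP9, was lower in KO-TGF, at 25.3 ± 0.984 against 104.5 ± 5.64 CPM (-2.05), whereas Mmp9 was higher there. Lcn2 was also lower in KO-SD, at 60.3 ± 4.23 against 205 ± 7.81 CPM in WT-SD (-1.76), where Mmp9 was lower too. In the interaction, 1 of the 17 was higher (Pcsk5, 0.54) and 6 lower, against 25.4% of all genes called (8.78% higher and 16.6% lower). These included Reck, a membrane-anchored inhibitor of MMPs (-0.40), and Thbs2, a matricellular protein through which MMP2 is cleared (-2.57), with 98 to 391 counts in KO-SD and a value of -1.73 without KO-SD replicate 1.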

How the data were processed

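Libraries were made with a KAPA mRNA kit and sequenced as single-end reads. The authors used TopHat and the mm10 genome for alignment and HTSeq-count for strand-specific counting on RefSeq genes, leaving out poor alignments. The deposited values are these raw counts, 1 whole number per gene and library, and were not normalized. Reads on no gene (10.3% to 15.4% of a library), with several alignments (11.2% to 11.7%) or on overlapping genes (0.225% to 0.274%) were left out of library sizes and tests.

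Groups were taken from the sample labels. As in the study, a gene was kept if any library had RPKM >1 (11404 genes), with exon-union lengths from GENCODE vM21, which 24426 of the 25230 genes had. RPKM and TMM-scaled CPM were computed from the counts. Tests used edgeR 4.0.16 in R 4.3.3, with 1 quasi-likelihood fit of all 12 libraries, 1 mean per group, 5 contrasts and Benjamini-Hochberg adjustment over all genes tested. Differences were called at FDR <5%, with fold change >2 as the stricter rule. Values of genes under the RPKM limit came from the same model without that limit. The script was tested on simulated counts.

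All 10 members are named. Of the lists of other family genes and partners, at most the 3 genes with the largest log2 fold change in a comparison are named, and genes most like a member are given for the 3 members with the largest interaction. The genes of the chromosome 9 cluster were named for their position after values were seen. The members and lists were chosen with earlier results of these data known. Replicates of a group differed by more than counting noise (chi-square per degree of freedom 1.33 to 5.20 over 12 pairs). The highest values, 5.20 and 4.91, came from the pairs that hold KO-SD replicate 1, and the next was 2.95 in WT-SD. All 12 libraries were kept. Alternatives were library sizes without scaling, DESeq2's size factors in edgeR, DESeq2 1.42.0, keeping genes with CPM >1 in 3 or more libraries, no filter, the replicate number as a block, a fit of only the groups compared, and each library left out.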

Additional observations from a re-analysis of the deposited data

Results flagged for a closer look

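The TGF-β response differed between KO and WT, by the interaction term at FDR <5%, for 9 of the 10 members. As the log2 response in KO minus that in WT, the value was 3.62 for Mmp9, -2.56 for Mmp13, -1.29 for Mmp3, -0.39 for Mmp2, 0.28 for Timp1, -0.21 for Mmp11, -0.20 for Mmp14, 0.19 for Timp3 and -0.17 for Timp2. Each value comes from 3 libraries in each of the 4 groups. That of Mmp9 carries the condition that it was tested only because of KO-TGF. Among all genes tested, 25.4% passed the same test.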

How the results depend on the processing

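The counts of members at FDR <5% were 9 or 10 for TGF-β against SD in each genotype and for KO-SD against WT-SD, and 8 or 9 for KO-TGF against WT-TGF and for the interaction, under each alternative run. Of 938 member values under alternatives, 929 kept their direction and their side of the threshold, 5 missed it, 1 newly passed it and 3 changed direction. The 3 changes all came with library sizes without scaling, namely Mmp2 in KO-TGF against KO-SD (-0.0089, FDR 0.710) and Timp1 (-0.039) and Timp2 (-0.050) in KO-TGF against WT-TGF. Mmp11 in KO-TGF against WT-TGF newly passed under that setting (-0.16, FDR 0.00138). Against TMM it moved the median log2 fold change of all genes by -0.15 in WT-TGF against WT-SD, -0.20 in KO-TGF against KO-SD, -0.07 in KO-SD against WT-SD, -0.12 in KO-TGF against WT-TGF and -0.05 in the interaction, and the share of higher genes among those called in KO-TGF against WT-TGF from 49.5% to 23.5%. Among the other genes, the interaction of Mmp16 passed the threshold in 6 settings and Mmp15 in KO-TGF against KO-SD in 2. In a fit of only the groups compared, Mmp9 is under the RPKM limit where KO-TGF is not included. Replicate numbers did not pair the libraries, since deviations of libraries with the same number correlated at -0.02 to 0.07. With the replicate number as a block, 10, 10, 10, 9 and 9 members passed in the 5 comparisons, as without it, and a library of the first group correlated best with its own number in 1 or 2 of 3 cases. Mmp9 in WT-SD and KO-SD and Mmp3 and Mmp13 in KO-TGF rest on the fewest counts, which limits the precision of their fold changes.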
